A study of Mus musculus with 16 samples.

Results

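The constant genes of the antibody heavy chain and of the kappa light chain were examined in RNA from LSK cells, the lineage-negative, Sca1-positive and c-Kit-positive bone marrow fraction that holds blood stem cells and multipotent progenitors. The 9 members were chosen by symbol: Ighm, Ighd, Ighg1, Ighg2b, Ighg2c, Ighg3, Igha and Ighe, which encode the constant parts of IgM, IgD, the 4 mouse IgG subclasses, IgA and IgE, and Igkc, which encodes the kappa constant domain. All 9 were found among the 53342 genes of the deposited tables, and all 9 passed the filter on low counts. Ighe and Ighd passed it with very few counts, and their values below are given with that limit.

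All mice had a C57BL/6J background and an age of 8 to 14 weeks. Mutant mice were homozygous for Gata2 +9.5(Ets)-/-, in which the Ets motif of an enhancer within an intron of Gata2 carries T in place of C. Gata2 encodes a transcription factor of blood stem cells. Mice of both genotypes were injected with PBS or with 250 mg/kg 5-fluorouracil (5-FU), which kills dividing cells, and marrow was taken on day 10. There were 5 wild-type and 5 mutant libraries after PBS, and 3 wild-type and 3 mutant libraries after 5-FU. Each library came from 3000 to 10000 sorted cells negative for B220, CD3, CD4, CD5 and CD8. The labels do not say whether replicates were separate mice, so p-values measure the spread between these libraries only.

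A B cell joins its heavy-chain variable segments and first makes IgM, with IgD made from the same primary transcript by alternative splicing. Class switching later deletes the DNA between a switch region upstream of Ighm and one upstream of a downstream constant gene, so that the cell makes IgG, IgA or IgE with the same variable part. When a B cell becomes an antibody-secreting plasma cell, it makes far more antibody RNA, and the RNA of each heavy class is processed to end in a secreted rather than a membrane form. Bone marrow is a site where plasma cells reside.

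On GRCm38 the 8 heavy constant genes lie on the minus strand of chromosome 12, in the order Ighm (chr12:113418558-113422730), Ighd (chr12:113406604-113416324), Ighg3 (chr12:113356224-113361232), Ighg1 (chr12:113325240-113330523), Ighg2b (chr12:113302965-113307933), Ighg2c (chr12:113285325-113288932), Ighe (chr12:113269260-113273248) and Igha (chr12:113254830-113260236). Igkc is a single exon on the plus strand, at chr6:70726435-70726966. Each heavy gene has a secreted and a membrane transcript in GENCODE M21, whose gene identifiers and versions matched those of the deposited tables for all 9 members. The ends of the coding sequence of both Ighm transcripts are shown because a result below rests on their ratio. Lower case marks the 24 bases that both forms share, and capitals mark the coding bases of one form alone: 59 for the secreted tail, read from the last exon (chr12:113420870-113420952), and 122 for the membrane anchor and its short cytoplasmic end, read from membrane exons at chr12:113418953-113419068 and chr12:113418558-113418834.
Ighm secreted end: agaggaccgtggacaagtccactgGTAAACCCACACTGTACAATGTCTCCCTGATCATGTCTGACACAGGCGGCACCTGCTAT
Ighm membrane end: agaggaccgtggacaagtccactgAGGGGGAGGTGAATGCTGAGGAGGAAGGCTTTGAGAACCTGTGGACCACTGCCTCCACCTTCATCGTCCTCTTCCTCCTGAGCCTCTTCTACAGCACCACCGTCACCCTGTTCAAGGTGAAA

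The hinge exons of the IgG genes, which encode the flexible link between the arms and the stem of the antibody, are shown because the subclasses are told apart by such differences between close copies. They are read 5′ to 3′ on the minus strand, all in lower case.
Ighg1 hinge, chr12:113329844-113329882: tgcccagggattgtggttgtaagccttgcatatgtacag
Ighg2b hinge, chr12:113307261-113307326: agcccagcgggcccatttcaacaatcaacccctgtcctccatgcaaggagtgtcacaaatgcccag
Ighg2c hinge, chr12:113288263-113288325: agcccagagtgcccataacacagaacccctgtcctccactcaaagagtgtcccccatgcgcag
Ighg3 hinge, chr12:113360529-113360576: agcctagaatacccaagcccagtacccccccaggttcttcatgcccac
The coding sequences of the secreted forms of Ighg2b and Ighg2c were 85.7% identical, and the other pairs of IgG genes between 74.1 and 76.3%. No stretch of 100 bases was shared exactly between transcripts of different classes. Fractional counts, which arise where a read fits more than 1 gene, occurred for Ighg2b and Ighg2c in 10 libraries each and for no other member, so the division between these 2 genes is less certain than their sum.

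Libraries held between 19.37 and 28.88 counts in units of 1e6. The 9 members together took between 0.0313 and 35.3% of a library, and between 67.1 and 79.9% of all immunoglobulin counts, the rest being variable, joining and lambda segments. The gate genes Kit and Ly6a were above 0 in all 16 libraries, while those encoding T cell proteins of the negative gate were at 0 in 1 (Cd5), 2 (Cd4), 4 (Cd3g), 5 (Cd8b1), 6 (Cd3d), 10 (Cd3e) and 12 (Cd8a) libraries. In such bulk libraries fewer cells of a type and less RNA per cell cannot be told apart.

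Among the members, Igkc and Ighm had the highest levels per transcript length in every library. Mean Igkc levels were 180346 TPM (transcript level scaled for length and library) in wild type with PBS, 173253 in the mutant with PBS, 1973 in wild type with 5-FU and 121292 in the mutant with 5-FU. The corresponding Ighm means were 55547, 47562, 810 and 44369 TPM. Igkc was above Ighm in 16 of 16 libraries, and it ranked first of all genes in the 13 libraries outside the group of wild type with 5-FU, where its ranks were 14, 484 and 15. Below Ighm the order was less settled: Igha was the most counted class after Ighm in 11 libraries, Ighg2b in 4 and Ighg3 in 1. In wild type with PBS the neighbours Igha, Ighg2b, Ighg3, Ighg2c and Ighg1, in that order of mean TPM, all overlapped between libraries. Ighd stood at 5.08 TPM ± 4.51 (SD, n = 5) and Ighe at 0.31 ± 0.327 (SD, n = 5), the lowest of the heavy genes there.

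**Figure D1:**
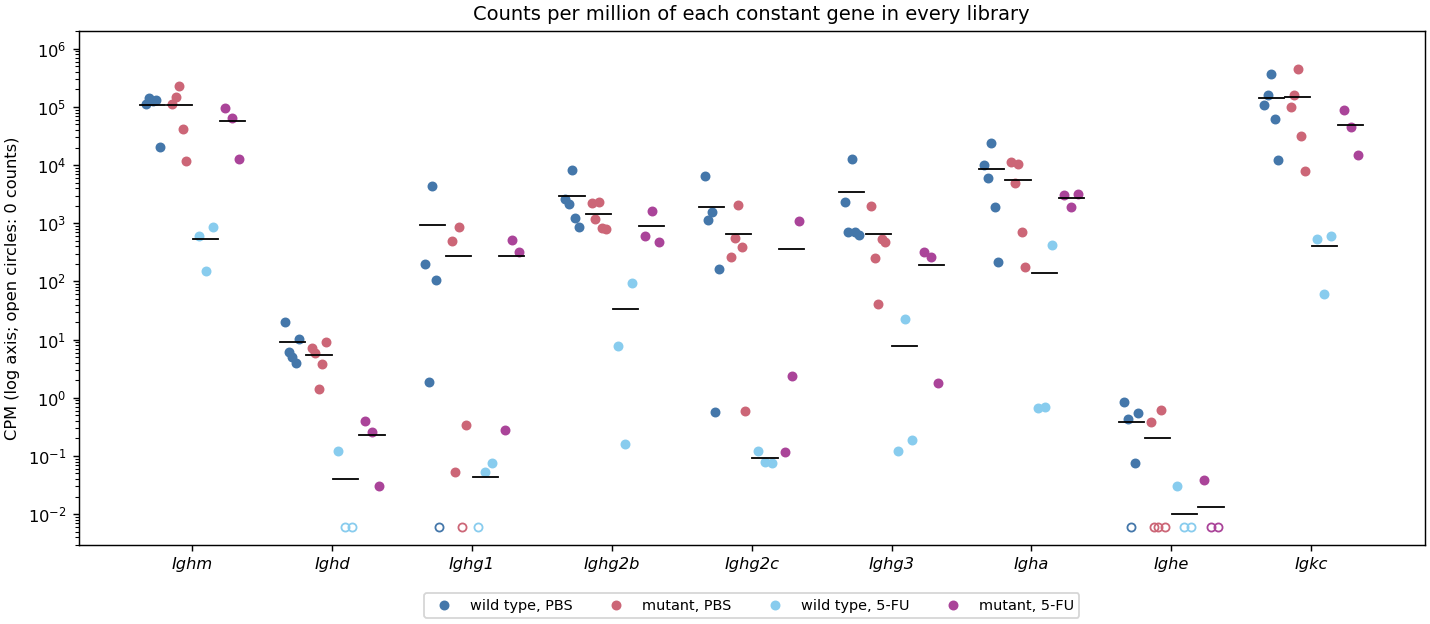
CPM (counts scaled to library size and a TMM library factor) of the 9 members in every library, on a log axis. A bar marks each group's mean, and open circles mark libraries with 0 counts. The TMM factors ran from 0.508 to 1.37. Wild type with 5-FU is low for Ighm and Igkc, at 605, 150 and 852 CPM and at 535, 61.2 and 609 CPM, while the libraries of the other groups lie at 11578 CPM or more for Ighm and at 8040 CPM or more for Igkc.

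IgM was the main class by counts. Class shares are given as the percentage of the summed expected count of the 8 heavy genes. The Ighm share in wild type with PBS was 84.0, 93.6, 70.9, 97.0 and 91.7% in replicates 1 to 5, a mean of 87.4% ± 10.4 (SD, n = 5). In the mutant with PBS it was 87.2, 95.6, 93.5, 94.6 and 88.8%, a mean of 91.9% ± 3.71 (SD, n = 5). Every PBS library was thus mostly IgM, and wild-type replicate 3 was the lowest of them. After 5-FU the wild-type shares were 98.6, 86.3 and 62.6% (82.5% ± 18.3, SD, n = 3) and the mutant shares 96.1, 93.8 and 71.0% (87.0% ± 13.8, SD, n = 3). The groups overlapped in all 4 comparisons of the IgM share, and the exact two-sided permutation tests gave p between 0.452 and 0.7 (adjusted p = 0.97 in each, over the 20 share, ratio and length tests).

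IgA is the class of mucosal secretions. Its share was 7.38, 3.86, 13.8, 1.44 and 0.952% in wild type with PBS and 8.91, 3.13, 4.31, 1.55 and 1.37% in the mutant with PBS. The IgG subclasses together took 8.63, 2.55, 15.4, 1.53 and 7.31% in wild type and 3.90, 1.26, 2.19, 3.89 and 9.75% in the mutant. Neither share differed between the PBS groups beyond the spread: the difference of means, mutant minus wild type, was -1.62 percentage points for IgA (exact permutation p = 0.611, adjusted 0.97) and -2.88 for IgG (exact permutation p = 0.373, adjusted 0.97).

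**Figure D2:**
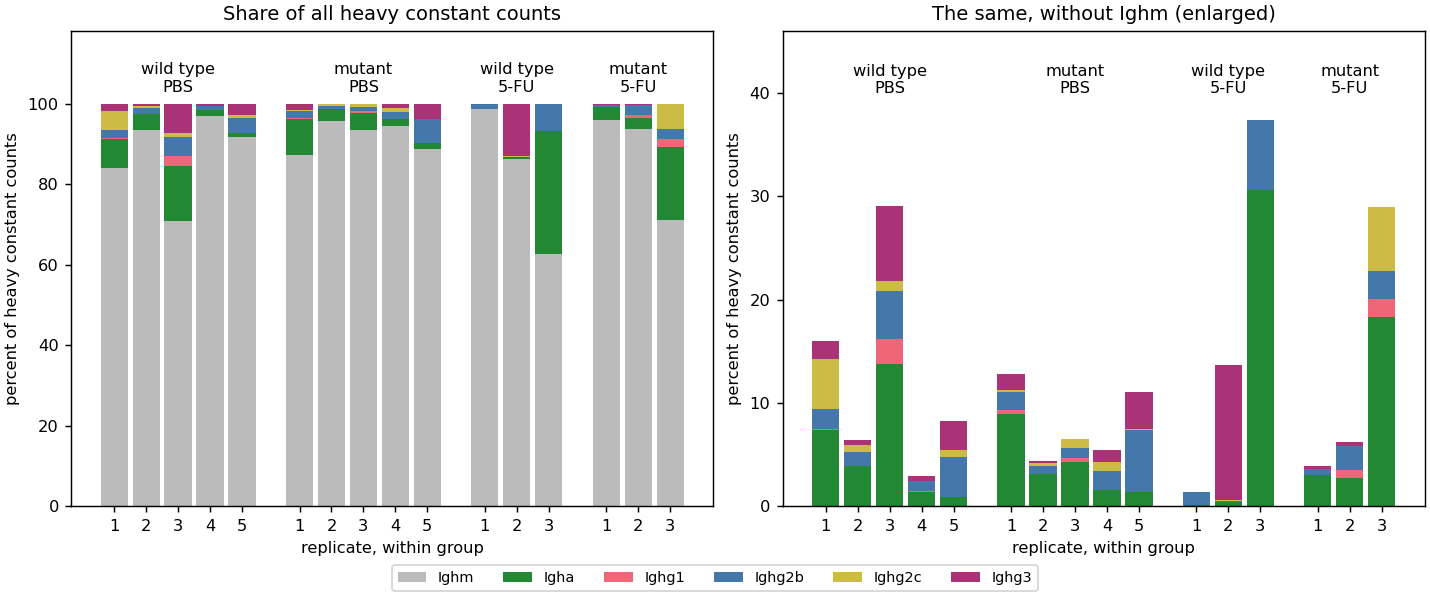
Share of each heavy class in the summed heavy constant count of each library, in percent, in full (left) and without Ighm (right). Ighm fills between 62.6 and 98.6% of each bar, and the remainder is made of different classes in different libraries, such as Ighg3 in wild type with 5-FU replicate 2 and Igha with Ighg2b in replicate 3.

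The wild-type libraries after 5-FU, with only 6545 to 35805 heavy constant counts each, did not share one switched profile. In replicate 1 Ighg2b led the switched classes at 1.25% (252 counts; Clopper-Pearson 95% interval 1.10 to 1.41%), with Igha at 0.109%. In replicate 2 Ighg3 was at 13.1% (857 counts; interval 12.3 to 13.9%), with Igha at 0.397% and Ighg2b at 0.0917%. In replicate 3 Igha was at 30.6% (10952 counts; interval 30.1 to 31.1%) and Ighg2b at 6.77%, while Ighg3 was at 0.0140%. These intervals cover only the counting of reads, each taken as independent. The libraries carry no molecular identifiers, so the intervals may be too narrow. Each library was thus led by another class, and the same class ranged widely: the Ighg3 share in replicate 2 was far outside the intervals of the other replicates, 0.00539 to 0.0507% and 0.00453 to 0.0326%. The counts of Ighg1 were 0, 2 and 2, and those of Ighg2c 4, 3 and 2.

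The mutant libraries after 5-FU held 584260 to 2586214 heavy constant counts. Their Igha shares were 3.03, 2.77 and 18.3%. Ighg1, the subclass of many responses to protein antigens, had 7, 16125 and 10564 counts, and Ighg2c had 3, 74.0 and 36278. The switched classes in the third library were therefore Igha, Ighg2c at 6.21%, Ighg2b at 2.65% and Ighg1 at 1.81%, while Ighg3 was at 0.0101%. Between genotypes after 5-FU the IgA share differed by -2.34 percentage points (exact permutation p = 1, adjusted 1) and the IgG share by -2.11 (exact permutation p = 0.6, adjusted 0.97). With 3 libraries against 3 the smallest p this test allows is 0.1.

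The fold range of the share between libraries differed by class. Over the 10 PBS libraries the Ighm share ranged 1.37-fold from lowest to highest, that of Ighg2b 8.18-fold and that of Igha 14.5-fold. A share that makes up most of the sum can range only little, so this does not show that Ighm levels were steadier. In CPM Ighm ran from 11578 to 225014 over the same libraries. With libraries at or under 3 counts set to that floor, the Ighg1 share ranged over 24735-fold, from that floor in mutant replicate 2 (1 count) to 47682 counts in wild-type replicate 3, and 2 further libraries had 0 counts. Ighg2c ranged over 11531-fold, from 15 to 131673 counts, and Ighg3 over 427-fold. Ighg2b was above 1% of the heavy counts in 7 of the 10 PBS libraries, Igha in 9 and Ighg3 in 6, but Ighg1 and Ighg2c in 1 each. Ighe, the class bound by mast cells and basophils, had at most 19 counts in any library and 0 in 8 of 16.

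The ratio of kappa to heavy constant counts ran from 0.352 to 2.09 over the 16 libraries. The ratio of Igkc to the heavy sum was 0.796, 1.02, 2.09, 0.471 and 0.530 in wild type with PBS, and 0.773, 1.00, 1.89, 0.709 and 0.617 in the mutant with PBS. Replicate 3 was the highest in both genotypes, and replicate 2 the second highest. The median absolute difference of the log2 ratio was 0.15 between PBS libraries of the same number in the 2 genotypes and 0.81 between libraries of other numbers. For the IgA share the same medians were 0.731 and 3.81 percentage points. The ratio was 0.871, 0.352 and 0.447 in wild type with 5-FU and 0.871, 0.649 and 0.856 in the mutant with 5-FU. No comparison of the log2 ratio passed its exact permutation test (p from 0.25 to 0.786, adjusted 0.97). Kappa made up between 87.1 and 99.4% of the kappa and lambda constant counts.

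**Figure D3:**
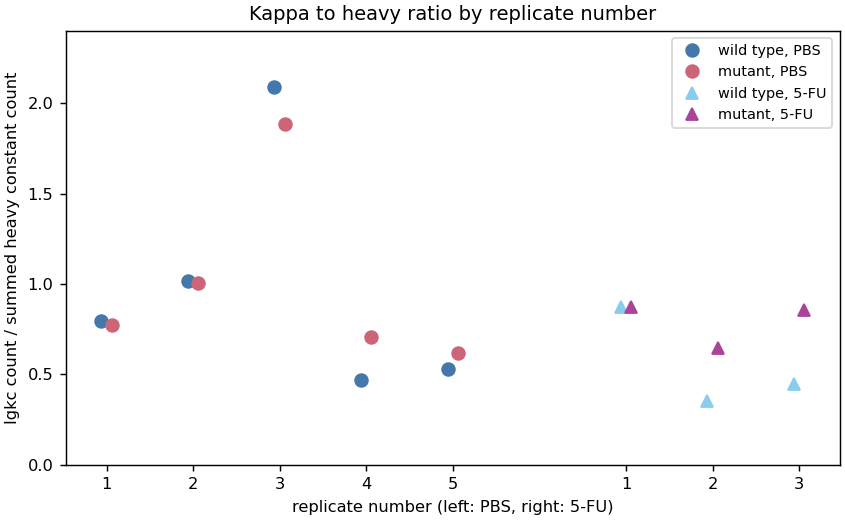
Ratio of the Igkc count to the summed heavy constant count by replicate number, PBS on the left and 5-FU on the right, with 1 point per library. Under PBS, wild type and mutant lie at 2.09 and 1.89 for replicate 3 and at 0.471 and 0.709 for replicate 4. After 5-FU both lie at 0.871 for replicate 1, and at 0.352 and 0.649 for replicate 2. All libraries lie between 0.471 and 2.09 under PBS and between 0.352 and 0.871 after 5-FU.

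Under PBS no member differed between genotypes. Ighm was at 113551, 145023, 124458, 129017 and 20834 CPM (scaled by TMM library factors) in wild type and at 110528, 149816, 225014, 42555 and 11578 CPM in the mutant. Replicate 5 was the lowest in both genotypes, and the groups overlapped. In edgeR's quasi-likelihood test 0 of 9 members passed an adjusted p of 0.05, against 0.0182% of all 16482 genes, 541 of which, but no member, had an unadjusted p under 0.05. The log2 fold change, mutant against wild type, was 0.02 ± 0.73 (SE) for Ighm, 0.08 ± 1.01 for Igkc and -2.40 ± 1.59 for Ighg3 (edgeR adjusted p = 1 for each). DESeq2 and limma also called 0 members. The SE of these values shows that changes of a few-fold in either direction were not detectable at this spread.

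After 5-FU, wild-type LSK libraries had far lower levels of most constant genes. Of the 9 members 6 fell and 0 rose, against 9.31% of all genes that fell and 5.55% that rose (14.9% in all). Ighm fell from 106576 ± 49249 CPM (SD, n = 5) to 536 ± 356 CPM (SD, n = 3), a log2 fold change of -7.64 ± 1.24 (SE, edgeR adjusted p = 0.00174). Igkc was at 107594, 157860, 367085, 62564 and 12045 CPM after PBS and at 535, 61.2 and 609 CPM after 5-FU, a change of -8.46 ± 1.78 (adjusted p = 0.00949). The highest 5-FU library lay below the lowest PBS library for both genes. Ighg2b fell by 6.49 on the log2 scale (adjusted p = 0.0203) and Ighg3 by 8.80 (adjusted p = 0.0463), with 4, 857 and 5 Ighg3 counts after 5-FU. The Ighg3 call was lost in 10 of 16 alternatives and the Ighg2c call in 8.

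Ighg2c and Ighd also fell, with fitted log2 fold changes of -14.24 and -7.62 (edgeR adjusted p = 0.0458 and 0.000805). For both the 5-FU libraries held so few counts, 9 in all for Ighg2c and 4 for Ighd, that these fitted values depend on the prior count and are no measure of size. Igha (-5.92 ± 2.42, adjusted p = 0.102), Ighg1 (adjusted p = 0.0914) and Ighe (adjusted p = 0.0818) did not pass. Igha was at 0.668, 0.692 and 416 CPM after 5-FU, and the third library lay above the lowest PBS library at 216 CPM. Without wild-type 5-FU replicate 1, 2 members passed, against 4.15% of all genes in that fit. The Igkc call ended without replicate 1 (adjusted p = 0.0507) or replicate 2 (adjusted p = 0.0513).

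Other genes of the antibody-making lineage were lower in the same libraries. Of 18 plasma cell genes 16 fell, against 9.31% of all genes, with a median log2 fold change of -5.35 against -0.11 for all genes. Among the 16 were Sdc1 (-4.05), the plasma cell surface marker CD138, and Irf4 (-7.13), a transcription factor of plasma cells. Of 14 mature B cell genes 11 fell, among them Ms4a1, which encodes CD20 and was at 9.40 CPM or more in every PBS library and at 0 in 2 of the 3 libraries with 5-FU. Further, 8 of 9 B precursor genes fell, among them Il7r (-6.26), the receptor of a B precursor growth factor, while Bach2 rose (1.01). Among 13 tested genes of class-switch recombination 0 fell and 2 rose, Msh6 (1.44) and Exo1 (1.53), which act in mismatch repair. Markers of other cells moved with the members: 6 of 10 monocyte and macrophage genes fell, with a summed level of 473 to 7734 CPM after PBS and 10.1 to 90.4 CPM after 5-FU. Most of that PBS level was Ly6c2 (351 to 7590 CPM, and 1.33 to 26.6 CPM after 5-FU), and the other 9 genes summed to 77.1 to 310.1 CPM and 8.81 to 63.8 CPM. Likewise 10 of 12 T and NK cell genes fell (summed 179 to 576 CPM after PBS, 138 to 226 CPM after 5-FU), and 5 of 8 erythroid genes (211 to 1053 CPM and 66.3 to 220 CPM). Their part in the result was not tested.

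In the mutant the response to 5-FU was different for Ighm. Ighm was at 97740, 64960 and 12606 CPM after 5-FU, within the range of the mutant PBS libraries, a log2 fold change of -0.88 ± 0.87 (SE, edgeR adjusted p = 0.764). Igkc was at 88607, 44947 and 15187 CPM, a change of -1.60 ± 1.25 (adjusted p = 0.683). Of the 9 members 1 fell, Ighd, against 1.36% of all genes that fell and 0.837% that rose (2.2% in all). The difference between the 5-FU responses of the genotypes (the interaction) was 6.75 ± 1.34 on the log2 scale for Ighm (adjusted p = 0.0343), the only member of 9 to pass, against 0.558% of all genes with a higher and 0.0303% with a lower response in the mutant (0.589% in all). For Igkc it was 6.86 ± 1.86 (adjusted p = 0.132). The Ighm interaction call ended in 11 of the 16 fits that each left out 1 library, with values from 6.16 to 7.25 and adjusted p up to 0.159.

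**Figure D4:**
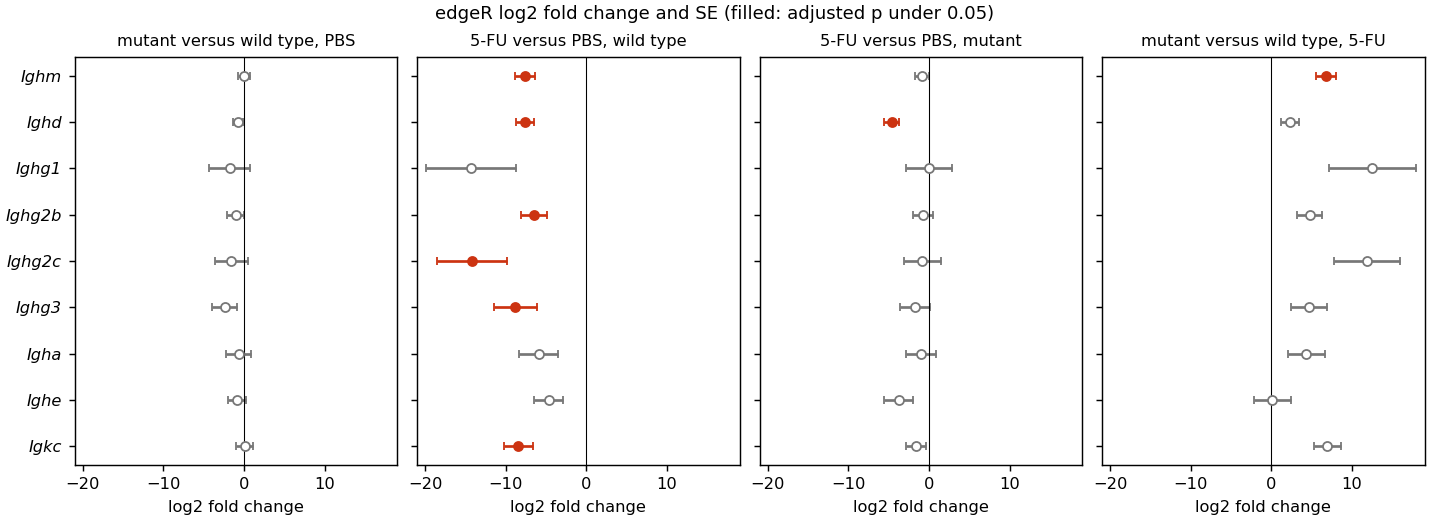
edgeR log2 fold changes of the 9 members with their standard errors in 4 comparisons, on all 16 libraries. Filled points passed an adjusted p of 0.05: none for genotype under PBS, 6 for 5-FU in wild type, Ighd for 5-FU in the mutant and Ighm for genotype after 5-FU. Wide bars occur for genes with few counts in a group and for genes that vary widely between its libraries, such as Ighg1 in the mutant.

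Set against wild type with 5-FU, the mutant with 5-FU had higher Ighm. The libraries at 97740, 64960 and 12606 CPM stood against 605, 150 and 852 CPM, a log2 fold change of 6.77 ± 1.21 (SE, edgeR adjusted p = 0.0155). The lowest mutant library lay above the highest wild-type library. Ighm was the only one of 9 members to pass, against 1.49% of all genes that were higher and 0.461% that were lower (1.95% in all). Igkc, at 6.95 ± 1.69, missed the threshold (adjusted p = 0.0540), as did Ighg2b at 4.74 ± 1.52 (adjusted p = 0.131) and Igha at 4.30 ± 2.29 (adjusted p = 0.327). Their libraries did not overlap between the groups, nor did those of Ighg1 (at most 0.0760 CPM in wild type, at least 0.275 CPM in the mutant). The share of all genes without overlap was not computed, so this adds no support. The Ighm call ended without wild-type 5-FU replicate 1 (adjusted p = 0.0997) or replicate 2 (adjusted p = 0.0795), and with the way the sample codes are written as a covariate (5.15, adjusted p = 0.134). DESeq2 called 5 members in this comparison, and 7.41% of all genes. The 3 wild-type 5-FU libraries also served in the comparison with PBS above, so both rest on the same low values. The sample codes of the 2 genotypes share no prefix, so prefix and genotype cannot be told apart. All 3 wild-type 5-FU codes are written without a leading 0 and all 3 mutant 5-FU codes with it. Within these groups the writing of the code and genotype thus cannot be told apart, and the covariate fit separates them only through the PBS libraries. What a code stands for is not stated.

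In the same comparison 9 of 18 plasma cell genes were higher and 0 lower, against 1.49% and 0.461% of all genes. Among the 9 were Irf4 (6.35), Pou2af1 (6.57) and Slamf7 (6.41), and the list had a median of 4.20 against 0.07 for all genes. Of 14 mature B cell genes 6 were higher, among them Ms4a1 and Fcmr, the Fc receptor for IgM. Ms4a1 was at 2.28 to 11.7 CPM in the mutant and at 0 in 2 of the 3 wild-type libraries, and Fcmr at 1.52 to 11.4 CPM and at 0 in all 3, so their fitted fold changes are no measure of size. Among B precursor genes Il7r was higher (6.00) and Dntt, the polymerase that adds bases at V(D)J joins, lower (-3.48). Of 13 class-switch genes 0 differed. Also higher were 5 of 12 T and NK cell genes, 2 of 10 monocyte and macrophage genes and 1 of 8 erythroid genes. The monocyte and macrophage genes summed to 434 to 898 CPM in the mutant and 10.1 to 90.4 CPM in wild type, or 52.5 to 238 CPM and 8.81 to 63.8 CPM without Ly6c2. The T and NK cell genes summed to 112 to 196 CPM and 138 to 226 CPM. Of 12 stem and multipotent progenitor genes 0 were higher and 2 lower. They summed to 1600 to 1811 CPM in the mutant and 2132 to 2327 CPM in wild type. The part of these lists in the Ighm result was not tested.

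Ighd parted from Ighm in the mutant after 5-FU. It was at 7.16, 5.93, 1.41, 3.83 and 9.11 CPM in the mutant with PBS and at 0.393, 0.254 and 0.0304 CPM (10, 8 and 1 counts) in the mutant with 5-FU. The groups did not overlap, and the log2 fold change was -4.61 ± 0.93 (SE, edgeR adjusted p = 0.0136). Per 1000 Ighm counts, Ighd stood at 0.0648, 0.0396, 0.00626, 0.0899 and 0.787 with PBS and at 0.00402, 0.00391 and 0.00241 with 5-FU. These ratios did not overlap either, but the lowest PBS ratio, in replicate 3, rested on 16 Ighd counts, against 10 in 5-FU replicate 1. The share of all genes without overlap was not computed, so the lack of overlap adds no support. In wild type Ighd was at 19.8, 6.08, 4.99, 3.93 and 10.4 CPM with PBS and had 4, 0 and 0 counts with 5-FU. Between genotypes after 5-FU Ighd did not pass (2.29 ± 1.15, adjusted p = 0.300), and neither did its interaction (3.01 ± 1.31, adjusted p = 0.406). The Ighd call in the mutant ended without mutant 5-FU replicate 2 (adjusted p = 0.0769) or replicate 3 (adjusted p = 0.0772).

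The B precursor list also held genes that fell in the mutant after 5-FU: Dntt (-6.27), and Rag1 and Rag2 (-5.25), which cut DNA in V(D)J joining. Rag1 was at 0.360 to 2.29 CPM with PBS and at 0 in all 3 libraries with 5-FU, so its fitted value is no measure of size. The fall was called in 3 of 9 B precursor genes, against 1.36% of all genes, 0 of 18 plasma cell genes and 0 of 14 mature B cell genes. A fall was also called in 2 of 12 stem and multipotent progenitor genes, 1 of 9 genes of the sorting gate and 1 of 12 T and NK cell genes. The summed B precursor level was 275 to 1084 CPM in the mutant with PBS and 22.9 to 55.6 CPM with 5-FU. The summed plasma cell level was 2247 to 79514 CPM and 3329 to 22489 CPM in the same groups.

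The form of the IgM transcript was followed through the deposited gene length, and no test of it passed. The deposited gene length is a mean over the transcripts of a gene, weighted by their abundance, so its position between 1493 bases (secreted) and 1698 bases (membrane) gives the share of the membrane form of Ighm. That share was 1.44, 1.03, 1.57, 1.56 and 2.46% in wild type with PBS and 1.21, 1.13, 1.32, 1.72 and 2.93% in the mutant with PBS. It was 5.24, 11.8 and 4.37% in wild type with 5-FU, all above the PBS libraries, and 0.937, 0.849 and 1.03% in the mutant with 5-FU, all below the mutant PBS libraries. Most Ighm RNA was thus of the secreted form in every library, whose last coding bases are printed above.

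The Ighm length rose by 11.3 bases with 5-FU in wild type and fell by 1.48 bases in the mutant. In both comparisons the groups did not overlap. The exact permutation test gave p = 0.0357 for each, the lowest value that 5 against 3 libraries can reach, and adjustment over the 20 tests gave 0.357, so neither passed. Between genotypes after 5-FU the means were 1508 and 1495 bases (exact permutation p = 0.1, the smallest possible with 3 against 3, adjusted 0.667). Under PBS the genotypes differed by 0.104 bases (exact permutation p = 0.873, adjusted 0.97). In TPM, the secreted form averaged 43965 in the mutant with 5-FU and 766 in wild type with 5-FU, a ratio of 57.4, and the membrane form 404 and 44.6, a ratio of 9.05. From wild type with PBS to wild type with 5-FU the secreted form was 71.4-fold lower and the membrane form 18.6-fold lower. Replicate 5, the PBS library with the least Ighm in each genotype, also had the highest membrane share there. The shares in wild type with 5-FU rest on 5651 to 22419 Ighm counts, and those of the other groups on 310143 or more.

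**Figure D5:**
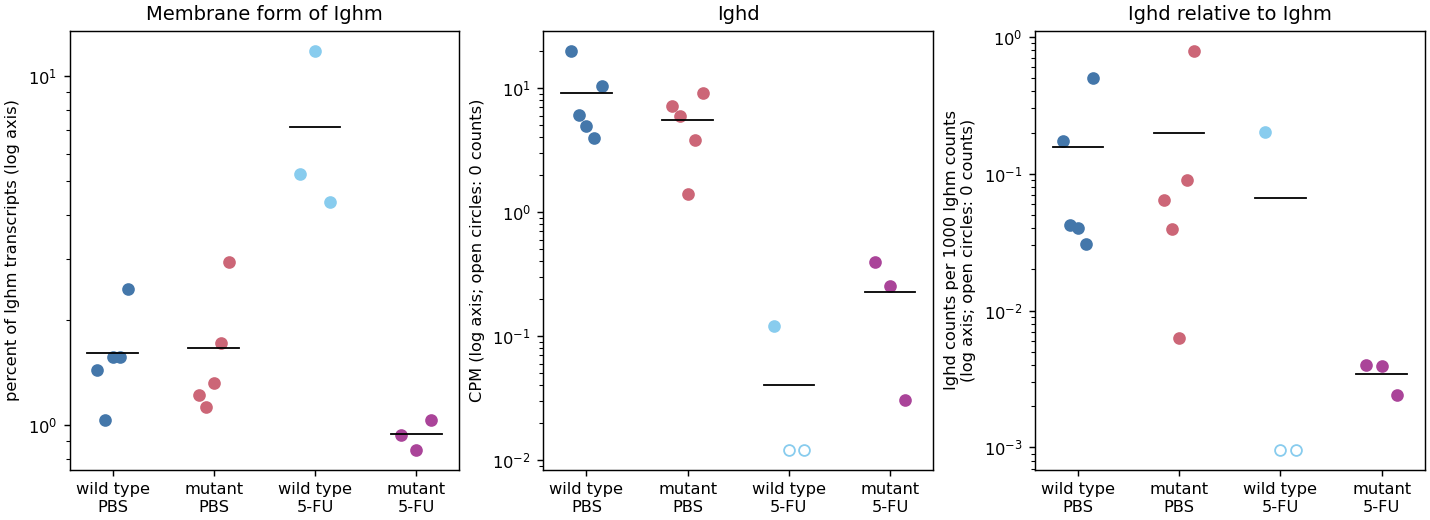
Membrane share of Ighm transcripts in percent (left), Ighd in CPM (middle) and Ighd counts per 1000 Ighm counts (right), with 1 point per library, a bar at each group's mean and log axes. Membrane shares lie between 4.37 and 11.8% in wild type with 5-FU and between 0.849 and 1.03% in the mutant with 5-FU, and Ighd is at 0 in 2 wild-type libraries with 5-FU (open circles).

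The genes most like each member were found by the SD of the log2 ratio of their CPM over the 16 libraries, a measure in which 0 means a fixed ratio, among 10054 genes. The nearest to Ighm were Cd79a, the B cell receptor's signalling partner (SD 0.51), Fcrla, an Fc receptor-like protein (0.52), and Slamf7 (0.52), against a median of 3.35 for all genes. The nearest to Igkc were Ly6d (0.39), Jchain, which links IgM and IgA into polymers (0.40), and Cd79a (0.59). The nearest to Igha were Jchain (1.80), Cd79a (2.05) and Prg2 (2.08), and to Ighg2b Ly6c2 (1.35), Jchain (1.47) and Hsd11b1 (1.47). Ighg1, Ighg2c and Ighg3 had no close gene: their nearest were Ear2 at 4.36, Ifitm6 at 3.72 and Fos at 2.74. These values describe 16 libraries pooled over 4 groups, which share the same library scaling, and carry no test.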

How the data were processed

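RNA of 16 libraries was sequenced. Per the labels' protocols, the RNeasy Micro kit served for purification and NuGEN Ovation Ultralow for the libraries. The submitters' processing notes name RSEM 1.3.1, FastQC 0.11.2 and mm10/GRCm38, and no source used here gives the aligner or annotation release. The deposited expected counts are RSEM's estimates of reads per gene without scaling, per the file headers. The deposited TPM is scaled to transcript length and library, and the deposited FPKM to effective length and library; FPKM served only for checks. The gene length and effective length columns were also deposited by the authors, per the file headers.

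After rounding, filterByExpr (edgeR 4.0.16, minimum count 10) kept 16482 genes. TMM scaling and the robust quasi-likelihood F test were fitted to all 16 libraries with 1 mean per group, and P values were adjusted by Benjamini-Hochberg over all genes tested. SE values are the fold change on the log2 scale over the root of F. The fit was tested on simulated data. Shares, the log2 kappa to heavy ratio and the Ighm length were compared by exact two-sided permutation tests (scipy 1.17.1; 20 tests, adjusted together). Transcripts, coordinates and sequences come from GENCODE M21 (GRCm38). The members, gene lists and tests were chosen with earlier results of these data known. Named were the 9 members, the genes of each list with the smallest p (Bach2 and Ly6c2 were chosen after their values were seen; some genes are not reported here), and the 3 genes most like each member. Replicate numbers paired the PBS libraries of the genotypes in part: same-numbered libraries deviated together (r from 0.17 to 0.58 over genes, all 5 pairs above 0.1). Libraries of other numbers had r from -0.45 to 0.47, so the ranges overlapped. The share, ratio and length tests did not use these pairs. Sign-flip tests of the 5 pairs gave p from 0.5 to 0.75. Replicate numbers did not pair other groups. No 2 libraries held identical values. The alternatives were RLE scaling, scaling without immunoglobulin genes, no filter, TPM shares, the code's writing as covariate, code prefixes, a replicate block, 2-group fits, leaving out each library, DESeq2 1.42.0 and limma 3.58.1 on log2(TPM + 1).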

Additional observations from a re-analysis of the deposited data

Results flagged for a closer look

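Single libraries stood apart from the rest of their PBS group in 14 of the 40 groups of values examined with Dixon's test at the 95% level. CPM and shares entered untransformed and describe the same genes, so the nominal rate of chance flags need not hold. In wild type with PBS, replicate 3 was high for Ighg1 (4325 CPM, a share of 2.46%), Ighg2b (8180 CPM) and Ighg3 (12905 CPM). Replicate 1 was high for Ighg2c (6580 CPM, a share of 4.87%). Replicate 5 was low for Ighm (20834 CPM) and high for the shares of Ighd (0.0459%) and Ighe (0.00243%). In the mutant with PBS, replicate 5 was high for the shares of Ighd (0.0699%) and Ighg2b (6.07%), and replicate 4 for that of Ighe (0.00138%, from 19 counts). Replicate 3 was high for Ighg2c (2029 CPM), and replicate 1 for Ighg3 (1971 CPM). Replicate 5 was thus apart in the Ighd share in both genotypes. The Ighg2b and Ighg2c values carry the uncertainty of close copies.

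The response of Ighm to 5-FU differed between genotypes, by 6.75 on the log2 scale (edgeR adjusted p = 0.0343 for the interaction). That call ended in 11 of the 16 fits that each left out 1 library. The Ighm length moved in opposite directions with 5-FU: each wild-type library lay above its PBS group, with a mean of 1508 bases, and each mutant library below its PBS group. The difference between these 2 responses was not tested.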

How the results depend on the processing

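The 20 share, ratio and length tests allow p of 0.1 (3 against 3), 0.0357 (5 against 3) or 0.00794 (5 against 5) at the smallest, before adjustment; none passed in any setting run, which says nothing about stability. Depth limits Ighd, Ighe, Ighg1 and Ighg2c in wild type with 5-FU, which had at most 4 counts in a library. Leaving out 1 library at a time, the change in the IgM share ranged from -5.50 to 12.5 percentage points (genotype after 5-FU), -13.0 to 5.03 (5-FU in wild type) and -9.52 to 3.00 (5-FU in the mutant). For the IgA share the ranges were -2.89 to 0.448 (genotype under PBS), -7.46 to 7.78 (genotype after 5-FU), -5.22 to 10.0 (5-FU in wild type) and -0.952 to 6.81 (5-FU in the mutant). For the IgG share they were -5.02 to 0.964 (genotype after 5-FU), -3.03 to 2.95 and -2.03 to 2.86 (5-FU in wild type and mutant). Those of the log2 kappa to heavy ratio were -0.14 to 0.45 (genotype under PBS) and -0.36 to 0.041 (5-FU in the mutant), and that of the Ighm length -0.544 to 0.538 bases (genotype under PBS). Among the 3 wild-type libraries whose codes share a prefix, 2 with PBS and 1 with 5-FU, 5-FU changed the IgM share by -31.7 and the IgA share by 29.4 percentage points.

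With 1 library left out, the members called ranged from 2 to 6 for 5-FU in wild type (3.06 to 19.8% of all genes). Their number ranged from 0 to 2 for genotype after 5-FU (0.0989 to 1.21%). It ranged from 0 to 1 for 5-FU in the mutant (0.913 to 2.47%) and 0 to 1 for the interaction (0.0640 to 1.89%). For genotype after 5-FU it was 0 with the writing of the codes as covariate (0.255% of all genes called), 2 with the replicate block (9.25%), 2 with a fit of the groups compared alone (14.1%), 5 with DESeq2 (7.41%) and 3 with limma on TPM (0.959%). For the interaction it was 0 without the filter on low counts (0.342%), 0 with the code covariate (0.164%), 2 with the block (2.32%) and 6 with DESeq2 (3.42%). For 5-FU in wild type it was 3 with the code covariate (6.14%), 4 without the filter (6.18%), 4 with the groups alone (15.1%), 6 with the block (44.4%), 7 with limma (46.2%) and 8 with DESeq2 (23.6%). It was 0 for 5-FU in the mutant with limma (0.977%). The cause of these differences was not tested.

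Directions also turned for values that passed no test. Ighm for genotype under PBS was -0.37 with the code covariate, -0.29 with the replicate block and -0.23 with limma, and Igkc -0.26, -0.24 and -0.19 in the same order. Ighg1 for 5-FU in the mutant was -0.041 with RLE scaling, -0.037 when scaled without immunoglobulin genes, -0.067 with the code covariate and -0.035 with DESeq2. With limma Ighe for genotype after 5-FU was -0.0092 and Igha for 5-FU in the mutant 0.70. With 1 library left out, genotype under PBS ranged from -0.42 to 0.31 for Ighm, -2.81 to 1.80 for Ighg1, -1.06 to 0.26 for Igha and -0.90 to 0.78 for Igkc. In the same fits 5-FU in the mutant ranged from -0.76 to 1.14 for Ighg1 and -9.01 to 0.27 for Ighg2c. Ighe ranged from -1.63 to 1.73 for genotype after 5-FU and -0.76 to 2.60 for the interaction. The replicate block changed no call between the PBS groups.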

Other observations

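Fc receptors and antibody transport genes, which bind or carry antibodies, were followed as 12 genes, of which 11 were tested. In wild type 4 of the 11 fell with 5-FU, against 9.31% of all genes: Fcer1g (-3.05), Fcgr4 (-3.13), Fcmr, and Pigr, the carrier of IgA and IgM across epithelia. Fcmr and Pigr had 0 counts in all 3 libraries with 5-FU, so no fold is given for them; with PBS they averaged 14.1 and 1.12 CPM. In the mutant 0 of 11 fell and Fcgr4, an IgG receptor of myeloid cells, rose (3.10). After 5-FU the mutant was higher than wild type for Fcgr4 (5.38) and for Fcmr (mean 6.46 CPM, against 0 counts). The summed level of the 12 genes was 34.8 to 101 CPM in wild type with 5-FU and 124 to 345 CPM in the mutant with 5-FU.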
